A study of Homo sapiens with 12 samples.

Results

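The activin system was described here through 10 genes: the activin beta subunits INHBA, INHBB and INHBE, the binding proteins FST and FSTL3, the related glycoprotein FSTL1, and the receptors ACVR1, ACVR1B, ACVR2A and ACVR2B. They were taken by gene symbol from count tables that together list 25433 genes, and all 10 were present in both tables and were tested in every comparison. The cells were A549, a human lung adenocarcinoma line with features of the alveolar epithelium, used at passages that the labels give only as a range. The 3 groups had 4 libraries each: a control group without the growth factor, a group given 10 ng/mL TGF-β1, and a group given the same TGF-β1 with 40 mM sodium acetate, called the acetate group below. Treatment lasted 2 days. All groups are the same cell line in the same serum-containing medium, and acetate was given only together with TGF-β1 in the samples analysed here. Whether libraries of 1 group stem from different cultures is not stated in the labels, and their spread, on which each p-value rests, may therefore be technical.

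Activins are secreted dimers of inhibin beta subunits, made as precursors that proprotein convertases cleave. An activin binds a type II receptor (ACVR2A or ACVR2B), which recruits and phosphorylates a type I receptor such as ACVR1B. That receptor then phosphorylates SMAD2 and SMAD3, the same transducers that TGF-β uses through its own receptors. Follistatin, the product of FST, and FSTL3 wrap around activins outside the cell and keep them from the receptors. In lung, activin A, the dimer of the INHBA product, is known for its part in inflammation and fibrosis.

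Each library held between 34698057 and 53936023 counts, so 3 counts equalled between 0.0556 and 0.0865 CPM (counts scaled to a fixed library total). This floor reflects counting error alone. Levels are CPM scaled by TMM factors over all 12 libraries. Changes are log2 fold changes from edgeR's quasi-likelihood test, two-sided, with Benjamini-Hochberg adjustment over all genes tested. A gene was called at an adjusted p below 0.05. The test itself gives no standard error (SE). Each SE was derived as the absolute log2 fold change divided by the square root of the test's F statistic. Intervals around a log2 fold change use this SE and the normal quantile. They are therefore narrower than the test's own distribution would give. The count columns carry codes that no sample label holds. Their groups were read from which table holds them and from how the authors named the tables, and every comparison rests on that placement. The summed level of 6 epithelial markers was between 5581 and 7669 CPM in every library; 4 of the 6 fell and 1 rose with TGF-β1, and all 6 rose in the acetate group against TGF-β1. The summed level of 5 fibroblast markers (PDGFRA, PDGFRB, DCN, LUM and THY1, none at 0 in a group's mean) was 4.98 to 5.55 CPM in control, 14.2 to 17.3 CPM with TGF-β1 and 61.2 to 67.9 CPM in the acetate group; all 5 rose with TGF-β1, 4 of 5 rose further and 1 fell with acetate added, and the part of these markers in the results below was not tested. CD14 and ITGAM, the leukocyte markers with values, summed to at most 4.34 CPM, and both fell with TGF-β1 and rose with acetate added. The other 3 leukocyte markers and the 3 endothelial markers were looked up by symbol and not found among the genes listed, so no level can be given for them. Over all genes tested, 34.1% were called higher and 32.8% lower with TGF-β1, and 33.3% and 30.4% for acetate against TGF-β1.

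With TGF-β1, all 10 genes of the system changed against control: INHBA, FSTL1, FSTL3, ACVR2B and ACVR1 rose, and INHBB, INHBE, FST, ACVR1B and ACVR2A fell. The background was broad, since 66.9% of the 22051 genes tested were called, 34.1% higher and 32.8% lower. The size of the change set the secreted proteins apart from the receptors. The 3 subunits, FST, FSTL1 and FSTL3 each changed at least 2-fold, 3 up and 3 down, where 8.92% of all genes rose and 8.68% fell by that much, and none of the 4 receptors did. The median absolute log2 fold change was 1.87 over the 10 genes and 0.36 over all genes. The libraries of the 2 groups did not overlap for any of the 10 genes, as for 61.4% of all genes. The signed median of the 10 was -0.04, against 0.02 over all genes.

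With acetate added to TGF-β1, 6 of the 10 genes changed against TGF-β1 alone, where 63.7% of 22336 genes were called, 33.3% higher and 30.4% lower. INHBB, INHBE and FST rose, and INHBA, FSTL3 and ACVR2B fell. FSTL1, ACVR1, ACVR1B and ACVR2A did not pass the test. Changes of at least 2-fold were seen for INHBB, which rose, and INHBA, which fell; 10.8% of all genes rose and 2.07% fell by that much. The median absolute log2 fold change was 0.47 over the 10 genes and 0.34 over all genes. Libraries of the 2 groups did not overlap for 7 of the 10 genes, as for 57.4% of all genes. Against control, 9 of the 10 genes changed in the acetate group, 4 higher and 5 lower, where 70.6% of 22742 genes were called, 36.1% higher and 34.4% lower. ACVR2B did not pass the test. In that comparison INHBA, FSTL1 and FSTL3 were at least 2-fold higher and INHBB, INHBE and FST at least 2-fold lower, as 14.3% and 5.47% of all genes were. Libraries did not overlap for 9 of the 10 genes, as for 64.0% of all genes. The comparisons share libraries: TGF-β1 stands in the first and the second, so the values are given side by side and no relation between them was computed.

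Scaling bore on these counts. With library totals in place of TMM factors, the median log2 fold change of all genes moved by 0.13 for acetate against TGF-β1 (to 0.16) and by -0.10 for TGF-β1 against control (to -0.09). The split of all genes called for acetate against TGF-β1 then went from 7437 higher and 6792 lower to 9592 higher and 4699 lower, and that for TGF-β1 against control from 7518 higher and 7224 lower to 6078 higher and 8676 lower. FSTL1, ACVR1 and ACVR1B then passed the test as higher in the acetate group, so that 9 of the 10 genes were called, 6 higher and 3 lower. Relative to the shifted median, the log2 change of ACVR1 was 0.09, that of ACVR1B 0.06 and that of FSTL1 -0.01. The direction of the 6 genes called with TMM was the same under both scalings.

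**Figure D1:**
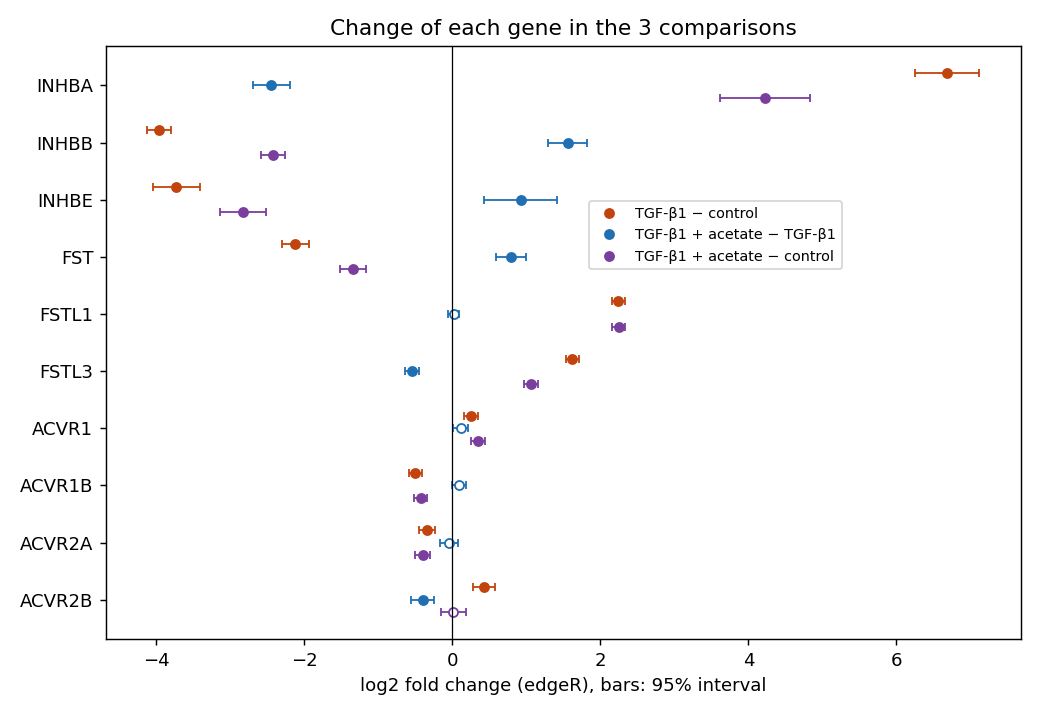
Log2 fold change of each of the 10 genes (horizontal axis) in the 3 comparisons, with bars of the 95% interval; filled points passed edgeR's test and open points did not. INHBA, INHBB, INHBE, FST, FSTL3 and ACVR2B passed with TGF-β1 and with acetate against TGF-β1, on opposite sides of 0. Both comparisons share the TGF-β1 libraries, and no relation between them was computed. FSTL1 lies at 0.02 for acetate against TGF-β1.

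INHBA encodes the beta A subunit, the building block of activin A. It was near the floor in control, where the 4 libraries held 4, 6, 1 and 1 counts, or 0.08, 0.12, 0.03 and 0.02 CPM. With TGF-β1 the libraries held 288, 208, 356 and 284 counts, or 7.06, 5.93, 7.02 and 6.92 CPM, and in the acetate group 55, 39, 45 and 58 counts, or 1.53, 1.01, 1.06 and 1.33 CPM. The 3 groups did not overlap: control lay at or near the floor, TGF-β1 was highest, and the acetate group lay between them. Of the control libraries, 2 were under 3 counts, so the ratio was taken on pooled counts. It was 107 for TGF-β1 over control (1136 against 12 counts, with a 95% counting interval of 61.2 to 208) and 19.5 for acetate over control (197 counts, interval 10.9 to 38.3). The fitted log2 change with TGF-β1 was 6.68 ± 0.22 (SE, adjusted p = 8.3e-14 by edgeR), a value that depends on the prior count, and 50 genes of the 22051 changed more in absolute size. Against TGF-β1 alone, INHBA fell by 2.44 ± 0.13 on the log2 scale in the acetate group (edgeR adjusted p = 1.6e-10), to 0.181 times the pooled TGF-β1 level (counting interval 0.155 to 0.211). In bulk RNA, a change in the number of cells that express a gene and a change in its RNA per cell cannot be told apart.

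INHBB encodes the beta B subunit of activin B and went the other way. Its control libraries were at 21.9, 21.7, 24.2 and 22.2 CPM, its TGF-β1 libraries at 1.45, 1.37, 1.30 and 1.63 CPM, and its acetate libraries at 4.92, 3.77, 4.54 and 3.59 CPM. No groups overlapped, with control highest and TGF-β1 lowest. INHBB fell by 3.96 ± 0.08 on the log2 scale with TGF-β1, or 15.6-fold (edgeR adjusted p = 1.6e-16), and 345 genes changed more in absolute size. It rose by 1.56 ± 0.14, or 2.94-fold, in the acetate group against TGF-β1 (edgeR adjusted p = 6.8e-08) and was 5.36-fold below control in that group (log2 -2.42 ± 0.08, edgeR adjusted p = 3.1e-15). The lowest acetate library was above the highest TGF-β1 library and below every control library.

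The windows just upstream of INHBA and INHBB are shown because these 2 subunit genes moved in opposite directions in both comparisons and their start regions differ in composition. The sequences are the 250 bases before each gene's RefSeq start site on GRCh38.p14, given 5′ to 3′ on the gene's own strand: chr7:41703091-41703340 on the minus strand for INHBA and chr2:120345886-120346135 on the plus strand for INHBB. Capitals mark matches on either strand to TATAAA, the core of the TATA box, or GGGCGG, the core of the GC box; the SMAD binding element CAGACA, its palindromic form GTCTAGAC, the AP-1 element TGANTCA and the cyclic AMP response element TGACGTCA were searched in the same way.
INHBA: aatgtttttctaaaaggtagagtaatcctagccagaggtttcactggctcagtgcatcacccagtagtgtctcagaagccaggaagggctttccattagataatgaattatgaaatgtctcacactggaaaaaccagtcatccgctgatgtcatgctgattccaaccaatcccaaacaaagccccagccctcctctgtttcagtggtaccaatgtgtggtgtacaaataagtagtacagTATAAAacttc
INHBB: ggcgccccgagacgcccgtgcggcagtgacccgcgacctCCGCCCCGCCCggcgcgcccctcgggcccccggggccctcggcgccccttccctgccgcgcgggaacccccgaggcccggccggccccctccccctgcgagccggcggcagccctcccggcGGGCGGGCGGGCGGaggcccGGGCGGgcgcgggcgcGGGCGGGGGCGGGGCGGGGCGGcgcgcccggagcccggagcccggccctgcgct
The INHBA window had a GC content of 42.8% and the INHBB window 89.6%. INHBA had 1 TATAAA match, from base -11 to -6 counted from the start site, and INHBB had 10 GGGCGG matches, overlapping ones included. The search also covered the 50 bases from the start site on, which are not shown, and there INHBA had 1 CAGACA match, from base 28 to 33. Over 35116 promoter windows of 300 bases, TATAAA was found in 11.5%, GGGCGG in 45%, CAGACA in 16.9%, TGANTCA in 7.71%, TGACGTCA in 1.85% and GTCTAGAC in 0.202%. Of the INHBA window, 18 bases lie in an exon of another start site in GENCODE 29. Promoters were found for 9 of the 10 genes in the RefSeq table; INHBE was not matched. A match describes the letters only. The motifs were chosen with the sequences and the results known.

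INHBE encodes the beta E subunit, best known from liver, and is a known gene of the stress response driven by ATF4. Its libraries were at 7.99, 10.5, 9.91 and 10.0 CPM in control, at 0.93, 0.34, 0.83 and 0.71 CPM with TGF-β1 and at 1.83, 1.33, 1.16 and 1.12 CPM with acetate. The groups did not overlap, although the lowest acetate library was close to the highest TGF-β1 library. The TGF-β1 libraries held only 12 to 42 counts of it. INHBE fell by 3.73 ± 0.16 on the log2 scale with TGF-β1 (edgeR adjusted p = 3.5e-12) and rose by 0.92 ± 0.25 in the acetate group against TGF-β1 (edgeR adjusted p = 0.0047), and in the acetate group was 7.13-fold below control (log2 -2.83 ± 0.16, edgeR adjusted p = 5.6e-12). Of the 16 other genes of the ATF4 response examined, 15 fell with TGF-β1 and none rose (median log2 -2.13), TRIB3 by 4.49, ASNS by 2.73 and PSAT1 by 2.41 on the log2 scale. Over all genes tested, 34.1% were called higher and 32.8% lower with TGF-β1, and 33.3% and 30.4% for acetate against TGF-β1. In the acetate group against TGF-β1, 4 of the 16 rose and 7 fell (median -0.17): ASNS, ATF5 and CEBPG, which had the smallest p, fell by 1.11, 0.81 and 0.50 on the log2 scale. TRIB3 rose by 0.68, as did STC2 by 1.59 and ATF3 by 0.63, and the latter pair was named after its values were seen.

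**Figure D2:**
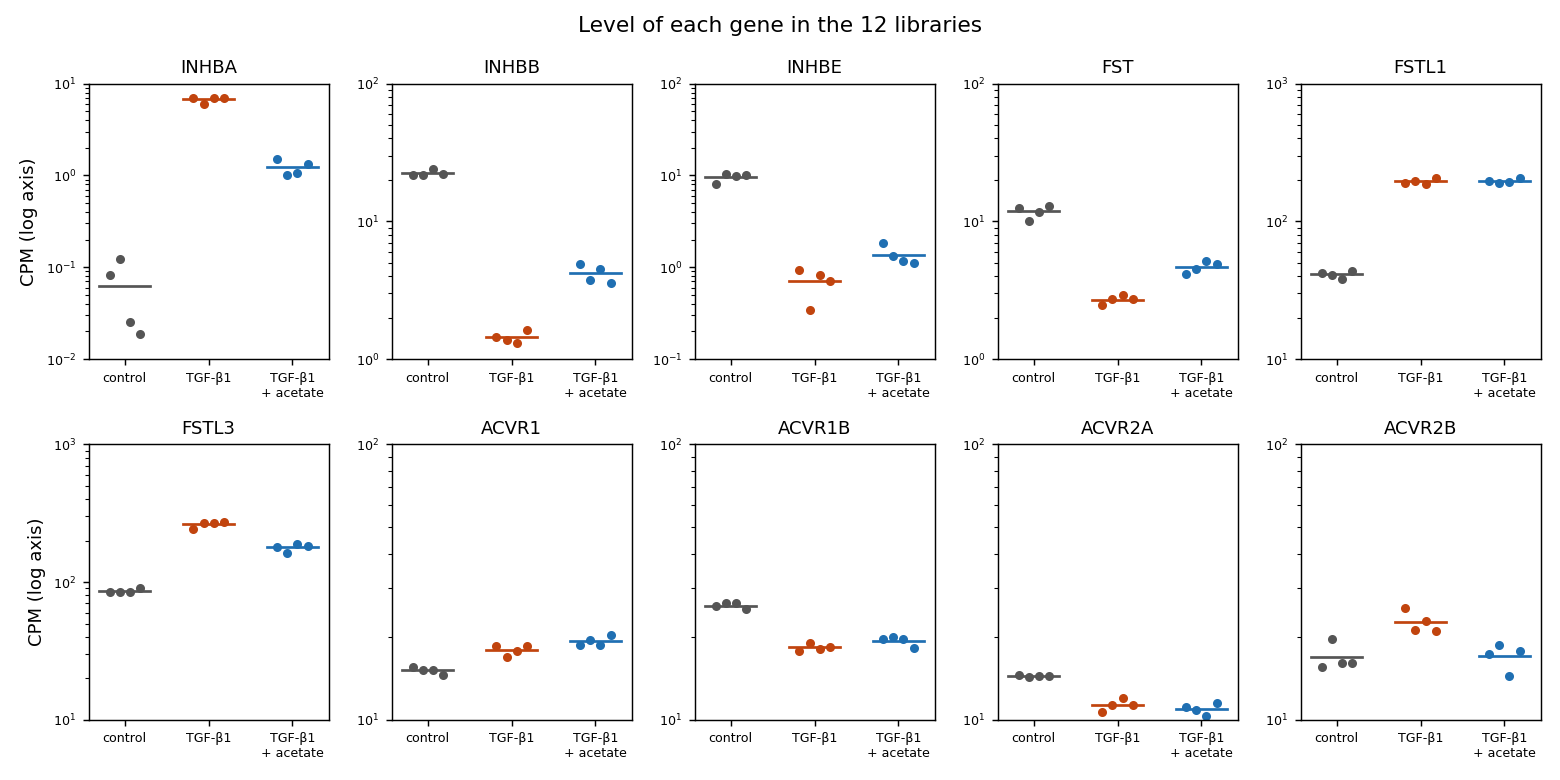
Level of each gene in CPM (vertical log axis, scaled separately in each panel) in the 4 libraries of each group; points are libraries and lines are group means. INHBA is near the floor in control and between 5.93 and 7.06 CPM with TGF-β1, while INHBB, INHBE and FST are highest in control and FSTL1 overlaps between the TGF-β1 and acetate groups.

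Per length, the 3 subunit genes together were much lower in both treated groups. Their summed level, each gene divided by the length of its exons, was 10.2 ± 0.6 CPM per kilobase in control (SD, n = 4), 1.49 ± 0.16 with TGF-β1 and 1.91 ± 0.30 in the acetate group. The control libraries lay apart from both others, at 9.48 or above, against at most 2.33. The makeup changed as well. In control, INHBB made up 68.8 ± 2.6% of the sum and INHBE 31.2 ± 2.6%, and INHBA 0.07 ± 0.06%. With TGF-β1, INHBA made up 54.5 ± 2.0%, INHBB 30.2 ± 3.5% and INHBE 15.3 ± 4.5%. With acetate INHBB made up most of the sum, at 68.7 ± 3.3%, with INHBE at 23.5 ± 2.8% and INHBA at 7.81 ± 1.35%. The INHBA share was 52.8% to 56.9% in the TGF-β1 libraries and 6.64% to 9.67% in the acetate libraries. These shares describe RNA and not dimers. With the longest transcript of each gene as its length, the INHBA share was 60.3% with TGF-β1 and 9.85% with acetate, and the order of the groups was the same.

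**Figure D3:**
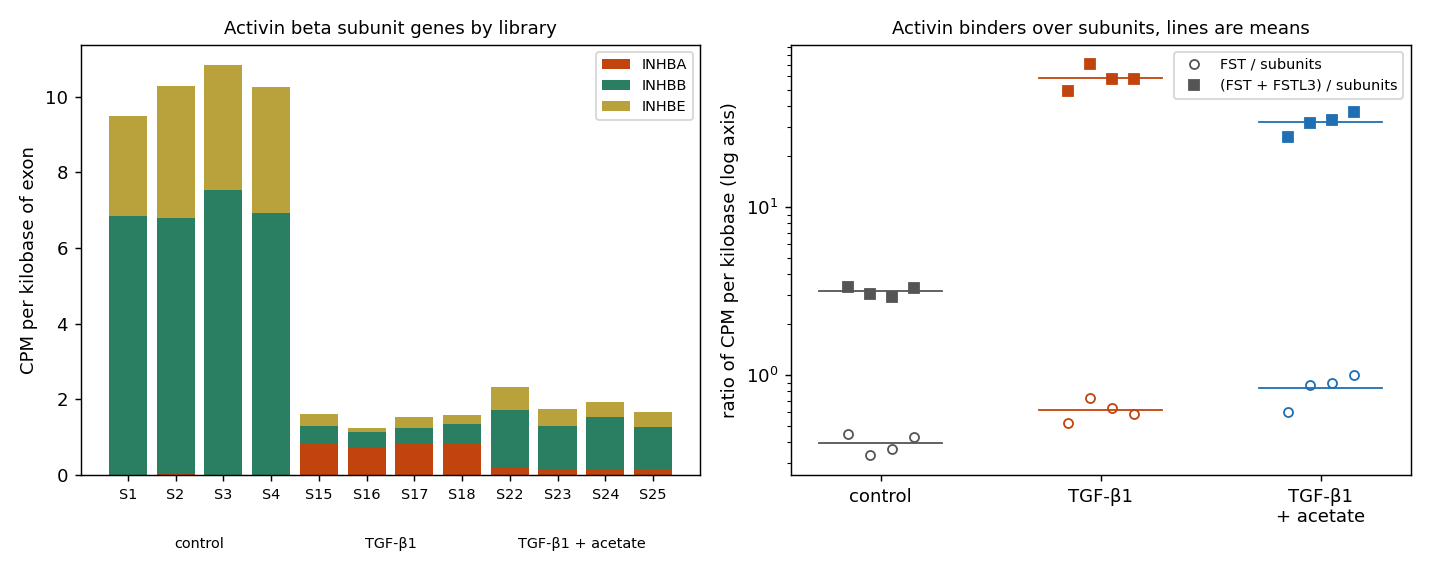
Left, stacked level of INHBA, INHBB and INHBE in each library in CPM per kilobase of exon; right, ratio of the binders to the summed subunits per kilobase (log axis), with lines at group means. Subunit levels are near 10 in control and below 2.4 elsewhere, and the ratio of FST plus FSTL3 to the subunits is lowest in control and highest with TGF-β1.

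Among the binders, FST and FSTL3 moved in opposite directions. FST encodes follistatin, which binds activin almost irreversibly. Its libraries were at 12.5, 10.1, 11.7 and 13 CPM in control, at 2.48, 2.71, 2.90 and 2.73 CPM with TGF-β1 and at 4.14, 4.50, 5.15 and 4.88 CPM in the acetate group. The groups did not overlap. FST fell by 2.12 ± 0.09 on the log2 scale with TGF-β1 (4.34-fold, edgeR adjusted p = 3.8e-12) and rose by 0.80 ± 0.10 in the acetate group against TGF-β1 (1.74-fold, edgeR adjusted p = 5.6e-06), and in the acetate group was 2.53-fold below control (log2 -1.34 ± 0.09, edgeR adjusted p = 7.3e-11).

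FSTL3, a secreted antagonist of activin and myostatin, was at 84.6, 85.2, 84.1 and 89.9 CPM in the control libraries. It was at 241, 270, 269 and 275 CPM with TGF-β1 and at 181, 164, 190 and 182 CPM in the acetate group. Every TGF-β1 library was above every acetate library, and both groups were above control. FSTL3 rose by 1.62 ± 0.04 on the log2 scale with TGF-β1 (3.08-fold, edgeR adjusted p = 5.5e-15), fell by 0.55 ± 0.05 in the acetate group against TGF-β1 (1.46-fold, edgeR adjusted p = 7.5e-08), and in that group was 2.08-fold above control (log2 1.06 ± 0.05, edgeR adjusted p = 2.6e-13).

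FSTL1 encodes a secreted glycoprotein that shares a follistatin-like domain and is widely made by mesenchymal cells. It was at 42.1, 41.0, 38.2 and 43.4 CPM in control, at 188, 198, 188 and 205 CPM with TGF-β1 and at 197, 190, 192 and 205 CPM in the acetate group. Control was lowest, and the treated groups overlapped over nearly their whole range. FSTL1 rose by 2.25 ± 0.04 with TGF-β1 on the log2 scale (4.74-fold, edgeR adjusted p = 1.4e-16) and was 4.76-fold above control in the acetate group (log2 2.25 ± 0.04, edgeR adjusted p = 1e-18). The acetate group and TGF-β1 differed by 0.02 ± 0.04 (edgeR adjusted p = 0.66), with a 95% interval from -0.05 to 0.09. The opposite strand of FSTL1 holds AC063952.1, which shares 316 exonic bases with it. The level of AC063952.1 was 1.39 ± 0.18 CPM in control libraries, 7.62 ± 0.41 with TGF-β1 and 7.33 ± 0.74 in the acetate group (SD, n = 4), small beside FSTL1. The libraries were made with a stranded kit, but the strand setting of the counting is not given in the sources used here, so reads of the 2 genes may be mixed.

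Per length, FSTL3 was the highest of the 10 genes in every group, at 28.02 ± 0.86 CPM per kilobase in control, 86.0 ± 5.0 with TGF-β1 and 58.4 ± 3.7 in the acetate group (SD, n = 4). FST made up 12.4 ± 1.0% of the sum of FST and FSTL3 in control, 1.05 ± 0.04% with TGF-β1 and 2.62 ± 0.21% in the acetate group, with no overlap between groups. The sum of FST and FSTL3 over the sum of the 3 subunits was 3.35, 3.04, 2.90 and 3.29 in the control libraries, 49.3, 70.8, 58.1 and 57.5 with TGF-β1, and 26.0, 31.5, 33.1 and 36.9 in the acetate group. The ratio was lowest in control and highest with TGF-β1, and no groups overlapped. FST alone over the subunits was 0.33 to 0.44 in control, 0.52 to 0.73 with TGF-β1 and 0.60 to 0.99 in the acetate group, and the treated groups overlapped. FST over INHBA was 1.13 ± 0.12 with TGF-β1 and 10.9 ± 2.6 in the acetate group; control is left out because 2 of its libraries held 1 count of INHBA. With the longest transcript as the length, the TGF-β1 ratio was 0.96, so the order of FST and INHBA there depends on the length used.

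The receptors changed by less. ACVR2B, a type II receptor with high affinity for activins, was at 15.6, 19.6, 16.02 and 16.1 CPM in control, at 25.5, 21.1, 22.8 and 20.9 CPM with TGF-β1 and at 17.3, 18.6, 14.4 and 17.8 CPM in the acetate group. TGF-β1 was highest and overlapped neither of the other groups, which overlapped each other. ACVR2B rose by 0.43 ± 0.08 on the log2 scale with TGF-β1 (edgeR adjusted p = 0.00011) and fell by 0.40 ± 0.08 in the acetate group against TGF-β1 (edgeR adjusted p = 0.00044). Acetate and control differed by 0.01 ± 0.09 (edgeR adjusted p = 0.89), with a 95% interval from -0.15 to 0.18.

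ACVR2A, the other type II receptor, was at 14.6, 14.3, 14.4 and 14.4 CPM in control, at 10.7, 11.4, 12.02 and 11.3 CPM with TGF-β1 and at 11.1, 10.8, 10.3 and 11.5 CPM in the acetate group. Control was highest and the treated groups overlapped. ACVR2A fell by 0.34 ± 0.05 with TGF-β1 on the log2 scale (edgeR adjusted p = 3.1e-05). The acetate group differed from TGF-β1 by -0.05 ± 0.06 (edgeR adjusted p = 0.54), with an interval from -0.17 to 0.07. It was lower than control by 0.40 ± 0.05 (log2 -0.40, edgeR adjusted p = 1.6e-06). ORC4, which lies on the opposite strand and shares 430 exonic bases with ACVR2A, was at 45.8 ± 0.4 CPM in control, 27.9 ± 0.9 with TGF-β1 and 32.2 ± 1.2 in the acetate group; its part in the ACVR2A values was not tested.

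ACVR1B, the type I receptor that carries activin signals to SMAD2 and SMAD3, lay between 25.1 and 26.5 CPM in control, 17.8 and 19.0 CPM with TGF-β1, and 18.2 and 19.99 CPM in the acetate group. It fell by 0.50 ± 0.04 on the log2 scale with TGF-β1 (edgeR adjusted p = 2.8e-08), and in the acetate group was lower than control (log2 -0.42 ± 0.04, edgeR adjusted p = 5.5e-08). Acetate and TGF-β1 differed by 0.09 ± 0.05 (edgeR adjusted p = 0.13), with an interval from -0.01 to 0.19. ACVR1, a type I receptor better known from BMP signalling, lay between 14.6 and 15.5 CPM in control, 16.9 and 18.5 CPM with TGF-β1, and 18.7 and 20.3 CPM in the acetate group. It rose by 0.25 ± 0.05 with TGF-β1 (edgeR adjusted p = 0.00029) and was higher than control by 0.35 ± 0.05 in the acetate group (edgeR adjusted p = 2.3e-06). Every acetate library was above every TGF-β1 library, yet the difference of 0.12 ± 0.05 did not pass the test (edgeR adjusted p = 0.062). Its 95% interval ran from 0.01 to 0.22 and so excluded 0. That interval uses the normal quantile and is not adjusted for the number of genes tested.

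The sum of the 4 receptors per length stayed within a narrow range. It was 11.23 to 11.82 CPM per kilobase in control, 10.59 to 10.97 with TGF-β1 and 10.57 to 11.17 in the acetate group. Every control library was above every library of the treated groups, which overlapped each other. The makeup of the sum differed between groups. ACVR1B made up 54.7 ± 0.6% of ACVR1 and ACVR1B in control (SD, n = 4), 41.8 ± 1.6% with TGF-β1 and 41.3 ± 1.8% in the acetate group. ACVR2B made up 33.3 ± 2.5% of the type II receptors in control, 46.1 ± 3.0% with TGF-β1 and 40.0 ± 2.1% in the acetate group. For ACVR2B the 3 groups did not overlap, with ranges of 31.5% to 37.0%, 44.3% to 50.6% and 37.5% to 42.5%. For ACVR1B control lay above both treated groups, which overlapped.

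The order of the 10 genes by level per length differed between groups. In control it ran from FSTL3 through INHBB, FSTL1, ACVR1B, FST, ACVR1, INHBE, ACVR2A and ACVR2B to INHBA. FSTL1 and ACVR1B overlapped there, as did FST and ACVR1. With TGF-β1 it ran from FSTL3 through FSTL1, ACVR1, ACVR1B, ACVR2A, ACVR2B, FST, INHBA and INHBB to INHBE, with overlaps between ACVR2A and ACVR2B and between FST and INHBA. With acetate it ran from FSTL3 through FSTL1, ACVR1, ACVR1B, ACVR2A, FST, INHBB, ACVR2B and INHBE to INHBA, and the neighbours from ACVR2A to ACVR2B overlapped. INHBB was thus second in control and ninth with TGF-β1, at 7.02 ± 0.35 and 0.45 ± 0.04 CPM per kilobase, and seventh in the acetate group at 1.31 ± 0.20. INHBA was last in control and in the acetate group, at 0.15 ± 0.03 CPM per kilobase in the latter. With TGF-β1, INHBA was at rank 8, at 0.81 ± 0.06. Some ranks of overlapping neighbours depend on the length used. With the longest transcript as the length, INHBB was at rank 8 in the acetate group and INHBA at rank 7 with TGF-β1. FST and ACVR1 then changed places in control.

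**Figure D4:**
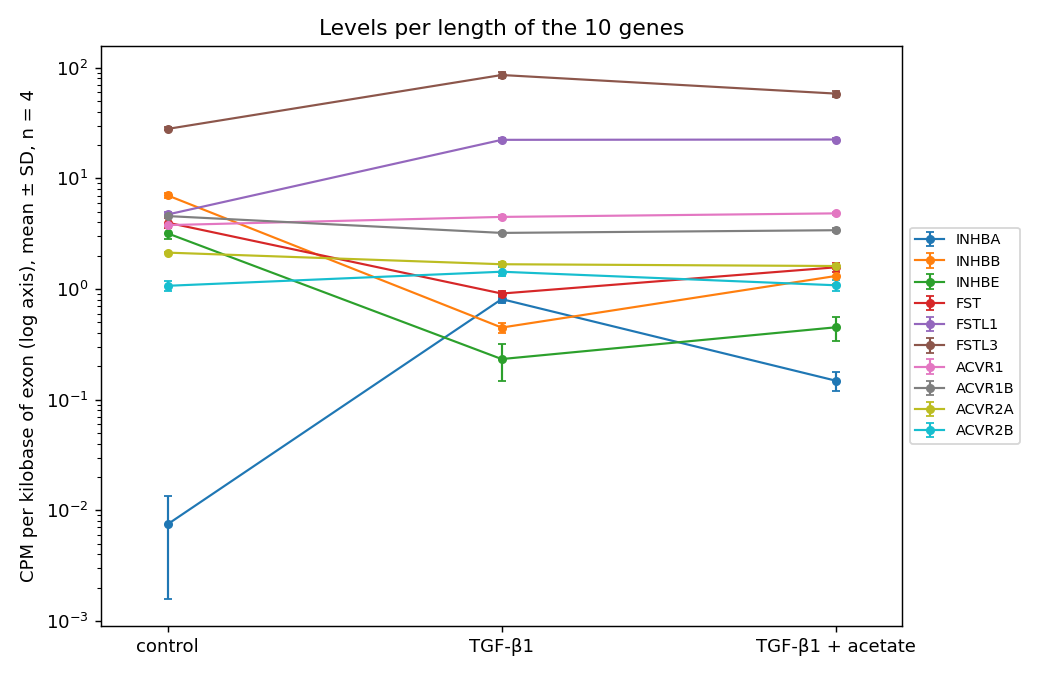
Mean level of each gene in CPM per kilobase of exon (vertical log axis) in the 3 groups, with bars of 1 SD over 4 libraries; lines only join the means of a gene. FSTL3 is highest in every group, the 4 receptors run nearly flat, and INHBA crosses INHBB and INHBE in the TGF-β1 group.

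For the lists below, 34.1% of all genes tested were called higher and 32.8% lower with TGF-β1. The shares were 33.3% and 30.4% for acetate against TGF-β1, and 36.1% and 34.4% for acetate against control. In a list of other ligands of the family, their LEFTY antagonists and the inhibin alpha subunit, 3 of 5 tested genes rose with TGF-β1 and none fell (median log2 0.62). GDF11, a ligand of the activin type II receptors, rose by 0.62 ± 0.06 on the log2 scale (edgeR adjusted p = 5.3e-08), and the other two that rose were the antagonists. LEFTY2, a secreted antagonist of NODAL, had 0 counts in all 4 control libraries and 98 to 161 counts with TGF-β1, at least 42.6-fold higher against a floor of 3 counts in each control library. LEFTY1 rose by 3.68 ± 0.27 on the log2 scale from 3 to 10 counts per control library (edgeR adjusted p = 3.3e-09). In the acetate group against TGF-β1, 3 of 6 rose and 2 fell (median 0.28). LEFTY1 fell by 3.23 ± 0.27 and LEFTY2 by 1.33 ± 0.14, while the ligands GDF1, NODAL and GDF11 rose by 1.65 ± 0.10, 1.49 ± 0.29 and 0.36 ± 0.05. NODAL was low, at 6 to 18 counts per TGF-β1 library and 24 to 43 per acetate library. LEFTY1 and LEFTY2 are near-identical copies, so reads may be split between them and both are uncertain. INHA, the alpha subunit that turns activins into inhibins, did not pass the test in any comparison, with log2 differences of -0.01 ± 0.24 with TGF-β1 and 0.20 ± 0.25 with acetate added. It was low in every group, at 19 to 26 counts per control library, 14 to 24 with TGF-β1 and 16 to 27 with acetate. INHA and NODAL were named after their values were seen.

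Among the 4 proprotein convertases, which cleave the precursors of activins, 3 rose and 1 fell with TGF-β1 (median log2 1.06). FURIN rose by 1.34 ± 0.04 and PCSK7 by 2.24 ± 0.05 on the log2 scale, and PCSK6 fell by 0.81 ± 0.05. In the acetate group against TGF-β1, 2 rose and 1 fell (median 0.42): PCSK7 fell by 0.97 ± 0.05 and PCSK6 rose by 0.74 ± 0.05, while FURIN, at 0.10 ± 0.05, did not pass the test (edgeR adjusted p = 0.083). Of 7 tested co-receptors, other receptors and antagonists, 1 rose and 4 fell with TGF-β1 (median -0.26), and 4 rose and 1 fell in the acetate group against TGF-β1 (median 0.44). TGFBR3, or betaglycan, the co-receptor that lets inhibin compete with activin, fell by 2.44 ± 0.09 on the log2 scale with TGF-β1 and rose by 2.43 ± 0.09 in the acetate group against TGF-β1. Its level was 12.9 ± 0.7 CPM in control, 2.37 ± 0.29 with TGF-β1 and 12.7 ± 0.9 in the acetate group, and the acetate group and control differed by -0.02 ± 0.07 (edgeR adjusted p = 0.78). FSTL4, a further follistatin-like gene, was at 12.2 ± 1.2, 0.95 ± 0.08 and 9.54 ± 1.37 CPM in the same order.

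Downstream, 6 of the 15 genes of the SMAD2/3 branch rose and 6 fell with TGF-β1 (median log2 -0.02), and 4 rose and 5 fell in the acetate group against TGF-β1 (median 0.00). Of all genes tested, 34.1% were called higher and 32.8% lower in the first comparison, and 33.3% and 30.4% in the second. SMAD7, the inhibitory SMAD, rose by 1.33 ± 0.04 and SMAD3 fell by 1.36 ± 0.04 with TGF-β1. Of 8 genes that respond to SMAD2/3, 7 rose with TGF-β1 (median 1.52) and 1, CDKN1A, fell, by 0.18. With acetate 6 of the 8 were lower than with TGF-β1 alone and 1 was higher (median -0.28), and all 8 were above control (median 1.38). TGFBI rose by 3.50 ± 0.04 and CTGF by 3.45 ± 0.05 with TGF-β1. In the acetate group TGFBI fell by 0.29 ± 0.03 and BHLHE40 by 0.35 ± 0.03 against TGF-β1, while CDKN1A rose by 0.95 ± 0.04. These genes respond to TGF-β itself, which was added in both groups, so they do not separate activin from TGF-β signals.

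**Figure D5:**
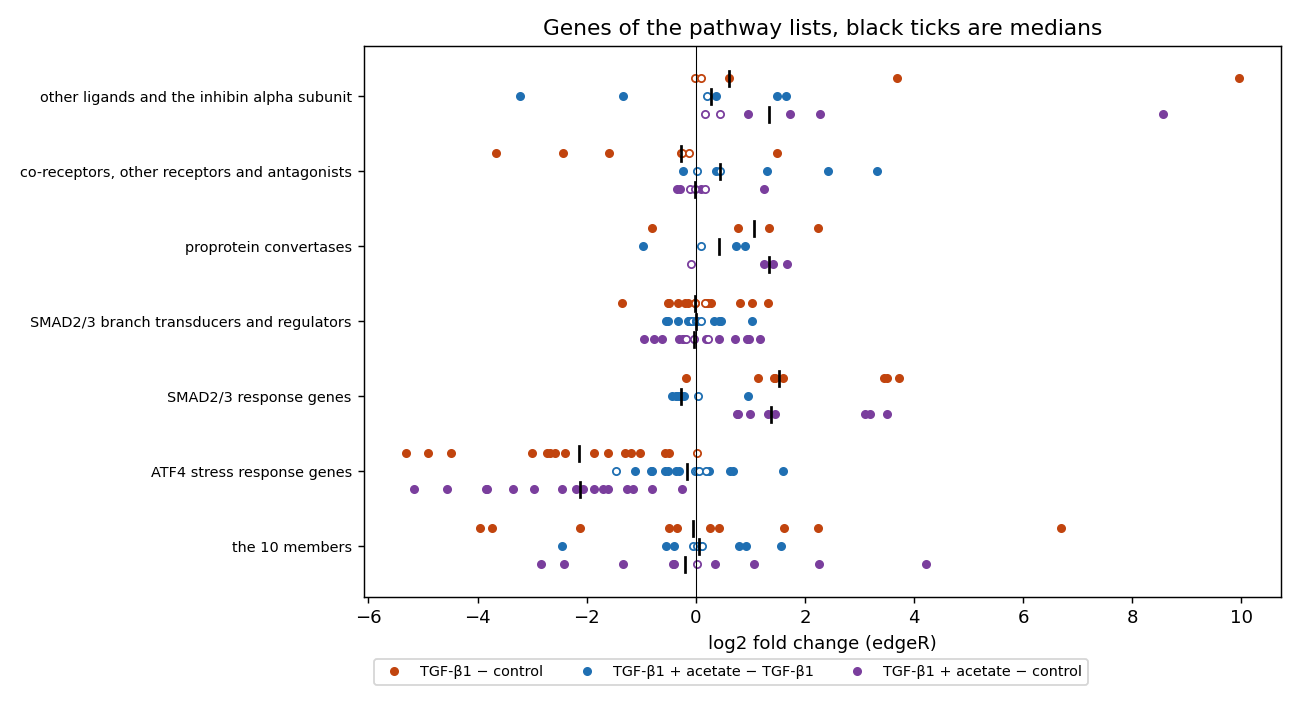
Log2 fold change of each tested gene of the pathway lists and of the 10 genes (bottom) in the 3 comparisons; filled points passed edgeR's test, open points did not, and black ticks are medians. The 10 genes spread to both sides of 0 with TGF-β1, the SMAD2/3 response genes lie mostly above 0 and the ATF4 genes below it; the point near 10 is LEFTY2, whose fitted value depends on the prior count because control is at 0.

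The genes with profiles most like those of the 10 were found by Pearson's r of log2 CPM over the 12 libraries among 10165 genes at or above the median level, and are given as a description, since all points share the same 3 groups. INHBA was closest to EXOC1, FOXO1 and FITM2 (r of 0.995, 0.994 and 0.994), and INHBB to C3, UPP1 and TNS2 (0.998, 0.998 and 0.997). INHBE was closest to ZNF641, RAB3IP and MYLK, with r of 0.987 at most. FST was closest to OSGIN2, TXNRD1 and KYNU, with r of 0.995 at most. FSTL1 was closest to EPHB2, CDH11 and SLC45A3 (0.999, 0.999 and 0.998), and FSTL3 to SMTN, SSR2 and VIM (0.997 each). The receptors had r of 0.988 or less to their closest genes: CYP4F3 and DESI1 for ACVR1B, DNAJC3, TMEM167A and BBS9 for ACVR1, and PCBD2, ALKBH3 and GLRX2 for ACVR2A. ACVR2B had S100PBP at 0.981, followed by KIAA0355 and PAWR at 0.936.

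On hg38, INHBA lies at chr7:41667168-41705834 on the minus strand and INHBB at chr2:120346143-120351808 on the plus strand, with ACVR2A at chr2:147844517-147930826 (plus) and ACVR1 at chr2:157736444-157875862 (minus) on the same chromosome. INHBE lies at chr12:57452323-57459280 and ACVR1B at chr12:51951667-51997078, both on the plus strand. FSTL1 lies at chr3:120392293-120451253 (minus), ACVR2B at chr3:38453851-38493142 (plus), FST at chr5:53480409-53487134 (plus) and FSTL3 at chr19:676365-683399 (plus). Counts were taken to cover the exons of whole genes, which the sources used here do not state, and levels per length rest on that. The union of annotated exons was 8302 bases for INHBA, 3204 for INHBB and 15744 for ACVR2B, the longest of the 10. In the authors' deposited tables the log2 fold change with TGF-β1 was 6.81 for INHBA, -3.95 for INHBB and -2.11 for FST, and that of acetate against TGF-β1 was -2.46, 1.53 and 0.79 for the same genes. The authors' q-values for acetate against TGF-β1 were 0.0198 for ACVR1 and 0.0431 for ACVR1B. Both are below 0.05, whereas the edgeR adjusted p was 0.062 for ACVR1 and 0.13 for ACVR1B.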

How the data were processed

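The labels give total RNA made into stranded, ribosomal-RNA-depleted libraries and sequenced as paired reads; bcl2fastq, HISAT2, limma and hg38 are named in the submitters' processing notes. The sources used here do not give versions, the counting tool, its strand setting or the annotation release. The authors deposited 2 tables with counts per gene, which were assumed to be raw counts from the series description. The same deposited tables hold the authors' log2 fold change and their p-value and q-value, which were read but not used for calls. A further 32 columns of per-library values, counted over both tables, were not used.

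The 10 genes, the pathway lists and the tests were chosen with earlier results of these data known. After filterByExpr (minimum count 10, minimum total 15), TMM scaling and the quasi-likelihood functions glmQLFit and glmQLFTest were applied in edgeR 4.0.16 (R 4.3.3). Each of the first 2 comparisons was fitted inside its own table; the comparison of acetate and control, which stand in different tables, used a joint fit of 12 libraries on shared genes. Genes named beyond the 10 are, of each list, those with the 3 smallest p in a comparison, the list markers, and the 3 nearest profiles of each gene (prior count 2); some genes that this rule gives are not reported here, although counts and medians of lists include them. Lengths come from GENCODE 29, which holds 99.1% of the identifiers with the version ignored; promoter sequences come from RefSeq (GRCh38.p14). Alternatives were library totals, DESeq2 1.42.0, limma-voom (limma 3.58.1), no filter, other samples in the fit, each library left out, and the longest transcript as length. The fit was tested on simulated data, 1 simulation per comparison. The share of false calls was above the nominal rate for TGF-β1 against control and slightly above it for acetate against control. An adjusted p just below 0.05 is therefore to be read with caution. Far fewer genes were changed in the simulations than were called in the data, so these shares may not carry over to the data.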

Additional observations from a re-analysis of the deposited data

Results flagged for a closer look

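In 7 of the 66 groups of 4 values examined (levels, sums, shares and ratios), 1 library stood apart: its gap to the nearest other library, divided by the group's range, was above Dixon's 95% critical value. Chance flags about 1 in 20 groups, and several of the 7 share a gene. INHBA was at 5.93 CPM in the TGF-β1 library S16, against 6.92 to 7.06 CPM in the others. FSTL3 was at 241 CPM in the TGF-β1 library S15, against 269 to 275 CPM, and the sum of FST and FSTL3 there was 79.4 CPM per kilobase, against 88.8 to 90.6. ACVR2B was at 19.6 CPM in the control library S2, against 15.6 to 16.1 CPM, and made up 50.6% of the type II receptors in the TGF-β1 library S15, against 44.3% to 44.9%. FST made up 2.31% of FST and FSTL3 in the acetate library S22, against 2.69% to 2.76%. ACVR1B made up 38.6% of ACVR1 and ACVR1B in the acetate library S25, against 41.9% to 42.5%. With any of these libraries left out, no member of the system gained or lost a call.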

How the results depend on the processing

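No paired analysis was possible because the count columns carry no replicate numbers and could not be tied to those of the labels. Over 430 log2 fold changes of the 10 genes under alternatives, 427 kept their side of the threshold and 415 of these also their direction. None lost a call, no called difference reversed, and 3 gained a call: with library totals, for acetate against TGF-β1, FSTL1 was at 0.15, ACVR1 at 0.25 and ACVR1B at 0.22 (edgeR adjusted p of 0.0021, 0.001 and 0.001), so 9 of the 10 genes were called in place of 6. The other 12 did not pass the test in either setting and changed sign. They were values of ACVR2A and FSTL1 for acetate against TGF-β1, and of ACVR2B for acetate against control. Over all settings, ACVR2A ranged from -0.10 to 0.09, FSTL1 from -0.02 to 0.15 and ACVR2B from -0.03 to 0.09 in those comparisons. The 0.15 of FSTL1 is the library-totals value that gained a call. INHBA with TGF-β1 ranged from 6.33 to 7.19, INHBB from -4.07 to -3.91 and INHBE from -3.87 to -3.53. With each library left out, 10, 6 and 9 of the 10 genes were called in the 3 comparisons, and between 14297 and 14702, 13523 and 14302, and 15463 and 16184 of all genes. DESeq2 called 14240, 13758 and 15688 genes, and limma-voom 14741, 14230 and 16084.

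Of 66 group means of levels per length, shares and ratios, 45 moved by over 1 SD with the longest transcript as length and 10 with library totals. The order of the 3 groups was the same for all 22 measures with the longest transcript and for 21 with library totals, the exception being the level of ACVR2A, where the treated groups changed places. Depth limits INHBA in control, where 2 libraries held 1 count, and INHBE with TGF-β1, where 1 library held 12.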
